A study of Mus musculus with 12 samples.

Results

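Expression of 6 genes for neurotrophins and their receptors (Bdnf, Ntf3, Ntrk2, Ntrk3, Ngfr and Sort1) was followed in the mouse cortex. They were taken by gene symbol from a table of 17202 genes, in which each of the 6 symbols has 1 row, and this rule uses no measured value. The table covers 12 male mice of the C57Bl6 strain, 3 in each of 4 groups. VEH-WT mice are wild-type and VEH-CD mice carry CD, a heterozygous deletion from Gtf2i to Fkbp6 that models Williams-Beuren syndrome, and both drank vehicle, although the sample labels call them untreated. VERCUR-WT and VERCUR-CD mice are the same genotypes given curcumin and verapamil together. By the labels, curcumin was given at 60 and verapamil at 10 mg/kg/day, the treatment began at 8 weeks of age and lasted 1 month, and the cortex was taken at 16 weeks. The methods of the study state a lower verapamil dose and younger mice at the end of the treatment, name the frontal cortex, and describe the CD line as crossed with Thy1-YFP mice, whose transgene labels pyramidal neurons. Every cell of a CD mouse lacks 1 copy of the deleted genes, and none of the 6 genes lies in the deletion.

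Neurotrophins are secreted growth factors that are made as proforms and cleaved to mature ligands. Mature BDNF binds the receptor tyrosine kinase TrkB (Ntrk2) and NT-3 binds TrkC (Ntrk3), which signal through the MAPK, PI3K-AKT and PLCγ pathways, while the proforms bind p75NTR (Ngfr) together with sortilin (Sort1). In the cortex, BDNF is made mainly by excitatory neurons, rises with neuronal activity and supports the growth and strength of synapses.

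The values are normalized counts, that is, the reads counted on a gene divided by 1 factor per sample. From 40290000 to 56480000 reads per mouse were counted. The median expression of 19 genes of the deleted region, relative to the mean of VEH-WT, was 0.468 to 0.53 in the 6 CD mice and 0.959 to 1.036 in the 6 WT mice, so each library fits its labelled genotype. Markers of excitatory neurons were high in all 12 samples, with sums of 4 genes from 105444 to 124008. The sum of 4 markers of striatal neurons (Drd1, Drd2, Adora2a and Rgs9) was high in 1 mouse of each group. It was 6953 in VEH-WT 3, 8285 in VEH-CD 1, 8716 in VERCUR-WT 3 and 6344 in VERCUR-CD 1, against 3190 to 3377 in the other 4 vehicle-treated mice and 1085 to 1161 in the other 4 co-treated mice. In VERCUR against VEH over both genotypes, 4 of 4 of these markers had lower values (median log2 fold change -1.29), of which 0 were called (limma) and 1 had an unadjusted p under 0.05.

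To compare levels between genes, the normalized count was divided by the annotated exon length in kb. Sort1 was highest, with a mean of 3513 per kb over the 12 mice (range 3121 to 4248), followed by Ntrk2 with 1409 (1190 to 1773). Bdnf, with 236 per kb (174 to 339), and Ntrk3, with 230 (207 to 291), overlapped and could not be ordered. Ngfr, with 19.2 per kb (13.7 to 25.5), and Ntf3, with 17.3 (8.12 to 28.4), overlapped as well. The ranges of the other neighbours did not overlap. With the length of the longest annotated transcript instead, Ntrk2 (mean 3110 per kb, range 2626 to 3911) reached into the range of Sort1 (mean 3890, range 3456 to 4704), and Ntrk3 (353) had a higher mean than Bdnf (344).

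**Figure D1:**
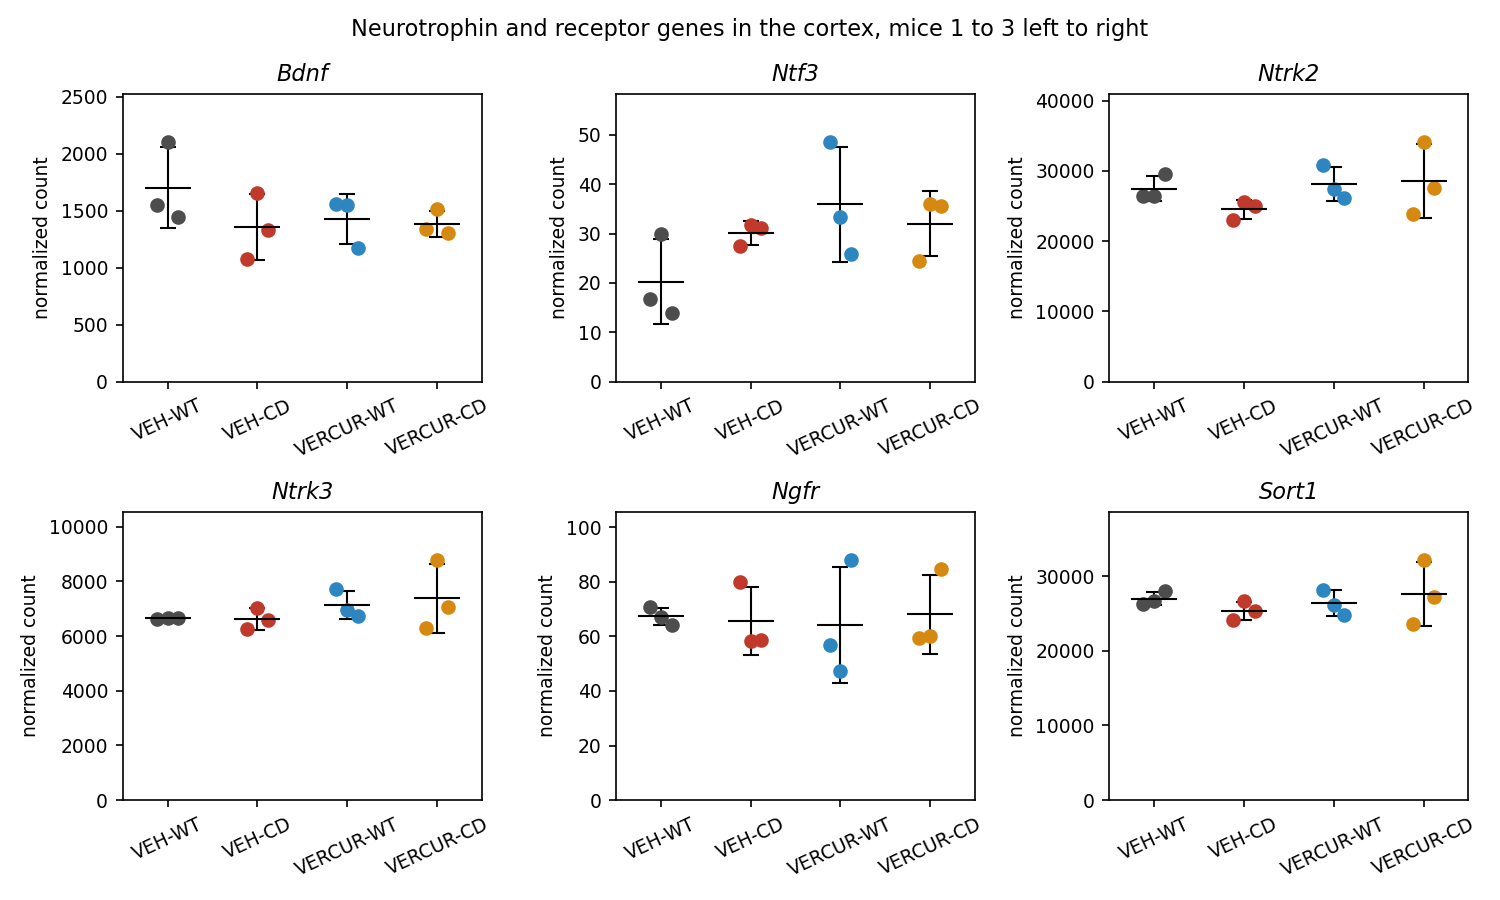
Normalized counts (y axis, from 0) of the 6 genes in the 4 groups (x axis). Each point is 1 mouse and the bar and whiskers give the mean ± SD of 3 mice. Ntf3 was lowest in 2 of the 3 VEH-WT mice, and 1 VERCUR-CD mouse had the highest values of Ntrk2, Ntrk3 and Sort1.

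The first question was whether the deletion alters these genes in vehicle-treated mice. None of the 6 was differentially expressed (limma, adjusted p under 0.05 and a level more than 25% higher or lower), and none had an unadjusted p under 0.05. Over all 17111 genes tested, 0.257% were differentially expressed and 11.8% had an unadjusted p under 0.05. The adjusted p values of the 6 genes ran from 0.455 to 0.984.

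Bdnf (ENSMUSG00000048482.14) lies on the plus strand of chromosome 2, from 109674700 to 109727007 of GRCm38. The annotation (GENCODE M21) gives it 11 transcripts, all coding, from 9 different start sites, and 1 other gene overlaps it. The table sums all of these transcripts. RefSeq lists 7 start windows of Bdnf, each of 300 bases (250 before the start and 50 after). The activity-dependent expression of Bdnf is known to run through sites for CREB, whose half-site is TGACG. Of the 7 windows, 1 held this half-site (CGTCA on the other strand), which 20.8% of the 32851 mouse windows held on either strand, and none held the full site TGACGTCA (1.79% of windows). That window is shown, with the half-site in capitals, because none of the other start windows listed for Bdnf, Ntf3, Ntrk2 and Ngfr held it, while windows of Ntrk3 and Sort1 were not analysed here (chr2:109692186-109692485, plus strand, GRCm38.p6).
Bdnf start window 3: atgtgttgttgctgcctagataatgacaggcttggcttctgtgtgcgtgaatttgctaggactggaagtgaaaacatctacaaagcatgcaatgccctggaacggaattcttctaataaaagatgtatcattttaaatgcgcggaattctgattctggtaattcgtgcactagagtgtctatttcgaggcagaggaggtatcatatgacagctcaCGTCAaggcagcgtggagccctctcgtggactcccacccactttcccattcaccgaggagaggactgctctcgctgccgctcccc

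The normalized counts of Bdnf were 1552, 2107 and 1446 in VEH-WT, 1080, 1654 and 1333 in VEH-CD, 1557, 1551 and 1170 in VERCUR-WT, and 1338, 1511 and 1302 in VERCUR-CD. VEH-WT 2 was the highest mouse and VEH-CD 1 the lowest, and every pair of groups overlapped. The group means were 1702 ± 355 (SD, n = 3) in VEH-WT, 1356 ± 288 in VEH-CD, 1426 ± 222 in VERCUR-WT and 1383 ± 112 in VERCUR-CD. Bdnf was 0.796-fold in VEH-CD against VEH-WT, with a 95% interval of 0.616 to 1.03 (log2 fold change -0.33, SE 0.17, adjusted p = 0.472). The interval includes no change, and the difference did not pass the test. Less RNA per cell and fewer cells that make it cannot be told apart in tissue RNA.

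Leaving out VEH-WT 2 brought the log2 fold change of Bdnf in VEH-CD against VEH-WT from -0.33 to -0.17, and leaving out VEH-CD 1 brought it to -0.18, whereas leaving out VEH-CD 2 brought it to -0.48. The mouse of highest striatal marker level was the lowest in Bdnf in 3 of the 4 groups. Without these 4 mice, the log2 fold change was -0.28, and it was -0.32 with the striatal marker level as a covariate. The part of the dissection in the Bdnf values of single mice was not tested.

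A separate deposited table of relative expression, scaled to vehicle-treated wild-type mice, also holds Bdnf. It lists the genes that the authors count as recovered after treatment. Its row lists 0.998, a blank and 1 for vehicle-treated wild-type mice, 0.699, 0.757 and 0.739 for vehicle-treated CD mice, and 0.882, 0.93 and 0.99 for co-treated CD mice. The same ratios were taken from the normalized counts, relative to the mean of VEH-WT 1 and VEH-WT 3. They were 0.72, 1.1 and 0.889 in VEH-CD and 0.892, 1.01 and 0.868 in VERCUR-CD, with VEH-WT 2 at 1.41. The 3 VEH-CD entries of the relative table thus lie closer together than those of the normalized counts, where VEH-CD 2 was above this reference. According to the methods of the study, expression was taken relative to the mean of the WT mice for each gene, after a correction on the CV. The Bdnf row does not equal these ratios of the normalized counts. The study reports Bdnf as lower in vehicle-treated CD mice than in wild-type mice, and as normalized by the co-treatment. It reports the same course for BDNF protein by western blot, which these RNA data do not measure.

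Ntf3 (ENSMUSG00000049107.13), the gene of NT-3, lies on the minus strand of chromosome 6, from 126101412 to 126166910, and has 3 coding transcripts and no overlapping gene. It had the largest change among the 6 genes in VEH-CD against VEH-WT, and the first of its 2 RefSeq start windows is therefore shown. This window held the E-box CACGTG, which is the same on both strands and which USF1 and USF2 are known to bind. The other window of Ntf3 lacked it, and 7.15% of the 32851 mouse windows held it. It is in capitals in the sequence (chr6:126166695-126166994, minus strand, GRCm38.p6).
Ntf3 start window 1: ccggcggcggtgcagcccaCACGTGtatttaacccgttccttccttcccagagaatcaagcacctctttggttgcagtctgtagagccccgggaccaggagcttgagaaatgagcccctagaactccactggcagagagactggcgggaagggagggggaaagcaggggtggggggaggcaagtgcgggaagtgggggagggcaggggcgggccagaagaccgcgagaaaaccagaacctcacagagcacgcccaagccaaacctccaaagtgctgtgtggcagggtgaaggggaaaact

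The normalized counts of Ntf3 were 16.81, 30.02 and 13.91 in VEH-WT, 27.42, 31.79 and 31.14 in VEH-CD, 48.67, 33.34 and 25.87 in VERCUR-WT, and 24.43, 35.97 and 35.61 in VERCUR-CD. VEH-WT 1 and VEH-WT 3 were below the other 10 mice, whereas VEH-WT 2 lay within the range of VEH-CD, so the groups overlapped. Only 15 to 41 reads per mouse stood behind these values. The exact Poisson 95% intervals, which cover counting error only, were 9.41 to 27.7 normalized counts in VEH-WT 1, 19.6 to 44 in VEH-WT 2, 7.95 to 22.6 in VEH-WT 3 and 17.6 to 40.8 in VEH-CD 1. Within VEH-WT, the interval of VEH-WT 2 overlapped those of the other two mice.

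The means of Ntf3 were 20.25 ± 8.59 (SD, n = 3) in VEH-WT, 30.12 ± 2.36 in VEH-CD, 35.96 ± 11.6 in VERCUR-WT and 32 ± 6.56 in VERCUR-CD. Ntf3 was 1.54-fold in VEH-CD against VEH-WT, with a 95% interval of 0.974 to 2.43 (log2 fold change 0.62, SE 0.30, adjusted p = 0.455). It was 1.77-fold in VERCUR-WT against VEH-WT (log2 fold change 0.83, unadjusted p = 0.0182, adjusted p = 0.944) and 1.61-fold in VERCUR-CD against VEH-WT (0.69, unadjusted p = 0.0422, adjusted p = 0.562). These 3 comparisons share the VEH-WT mice, so the low values of VEH-WT 1 and VEH-WT 3 enter each of them. VERCUR-CD and VEH-CD differed little in Ntf3 (log2 fold change 0.07, 95% interval -0.59 to 0.73, adjusted p = 0.967).

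Ntf3 was called under 1 setting. When the value farthest from the median was removed wherever the CV within a group reached 20%, which removes VEH-WT 2 for Ntf3, the log2 fold change in VEH-CD against VEH-WT became 0.93 with an adjusted p of 0.00635 (limma). That setting called 972 genes in this comparison, against 44 with all mice kept. When VEH-WT 2 alone was left out, for every gene, the log2 fold change was also 0.93, but the adjusted p was 0.453. Without VEH-WT 3 it fell to 0.40 (adjusted p = 0.808). A second deposited table of relative expression holds the top 100 genes that the authors count as differing between vehicle-treated WT and CD mice. Its Ntf3 row lists 1.1, a blank and 0.901 for vehicle-treated wild-type mice, 1.81, 2.11 and 2.05 for vehicle-treated CD mice, and 1.64, 2.25 and 2.31 for co-treated CD mice. The study counts Ntf3 as higher in vehicle-treated CD mice and does not mark it as recovered by the co-treatment. With all mice kept, Ntf3 was not called here. The normalized counts relative to VEH-WT 1 and VEH-WT 3 gave 1.79, 2.07 and 2.03 in VEH-CD, 1.59, 2.34 and 2.32 in VERCUR-CD, and 1.95 in VEH-WT 2.

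The mouse of highest striatal marker level was the lowest in Ntf3 in 4 of 4 groups. Without these 4 mice, the log2 fold change of Ntf3 in VEH-CD against VEH-WT was 0.47, and with the striatal marker level as a covariate it was 0.64. The same mice were the highest in Chat, the enzyme that makes acetylcholine, in 4 of 4 groups. Over the 12 mice, Pearson's r of Ntf3 was -0.67 with the mean log2 level of the striatal markers. It was -0.84 with that of markers of oligodendrocytes. The part of either marker set in the Ntf3 values was not tested.

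**Figure D2:**
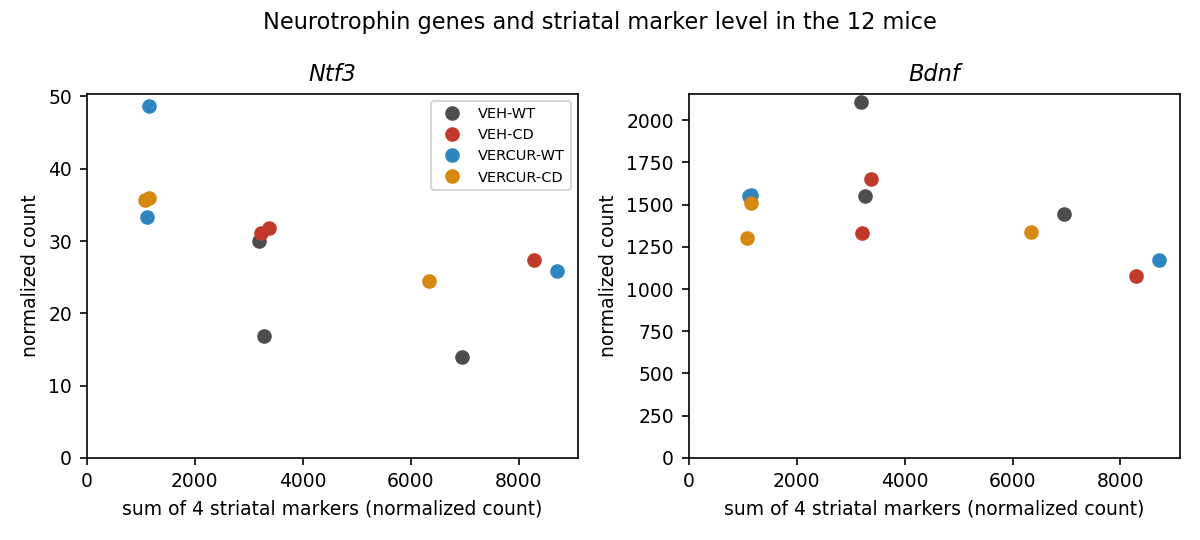
Normalized counts of Ntf3 and Bdnf (y axes, from 0) against the sum of the normalized counts of 4 striatal markers (x axis) in the 12 mice, with 1 point per mouse and the groups in colour. In each group, the mouse farthest to the right was the lowest in Ntf3.

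Ntrk2 (ENSMUSG00000055254.15, chromosome 13, 58806569 to 59133970, plus strand) encodes TrkB. It has 7 coding transcripts, whose coding sequences run from 466 to 821 codons. Neurons use the long form with the kinase, and the short form that lacks it is the main one of astrocytes. The table holds 1 value for the gene, so the forms cannot be told apart. Its normalized counts were 26476, 26436 and 29551 in VEH-WT, 22965, 25577 and 25083 in VEH-CD, 30818, 27494 and 26196 in VERCUR-WT, and 23909, 34198 and 27574 in VERCUR-CD. All 3 VEH-CD mice were below the 3 VEH-WT mice. Ntrk2 was the only member whose groups did not overlap in this comparison, which was the case in 20.6% of all genes tested.

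The mean of Ntrk2 was 27488 ± 1787 (SD, n = 3) in VEH-WT and 24542 ± 1388 in VEH-CD. This is a ratio of 0.893 with a 95% interval of 0.757 to 1.05 (log2 fold change -0.16, SE 0.11, adjusted p = 0.584), so the difference did not pass the test. Without the mouse of highest striatal marker level in each group, the log2 fold change was -0.06. In VERCUR-CD against VEH-CD, Ntrk2 was 1.15-fold (0.977 to 1.36, log2 fold change 0.20, adjusted p = 0.867). Without VERCUR-CD 2 this log2 fold change was 0.07, without VERCUR-CD 1 it was 0.32, and with the striatal marker level as a covariate it was 0.10. The sum of 6 interneuron markers was also lower in VEH-CD (37768 to 40833 normalized counts) than in VEH-WT (42452 to 46331). Over the 12 mice, Pearson's r of Ntrk2 with the mean log2 level of these markers was -0.10. After the group means were taken out, it was -0.54. The sum of 5 astrocyte markers overlapped (39035 to 49864 in VEH-WT and 39674 to 46341 in VEH-CD). With their mean log2 level, Ntrk2 had an r of 0.53, and of 0.41 after the group means were taken out. The part of either marker set in the Ntrk2 values was not tested. Among the interneuron markers, the GABA-synthesis enzyme Gad1 was lower in each VEH-CD mouse than in each VEH-WT mouse (log2 fold change -0.20, adjusted p = 0.221). The means of Gad1 were 16116 in VEH-WT, 14053 in VEH-CD, 13748 in VERCUR-WT and 14277 in VERCUR-CD.

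Ntrk3 (ENSMUSG00000059146.12, chromosome 7, 78175959 to 78738012, minus strand) encodes TrkC and has 20 transcripts, of which 6 are coding. Its normalized counts were 6623, 6654 and 6676 in VEH-WT, 6241, 7038 and 6599 in VEH-CD, 7718, 6960 and 6724 in VERCUR-WT, and 6298, 8782 and 7061 in VERCUR-CD. The VEH-WT mice were within a CV of 0.399% of each other, and the VEH-CD mice spread to both sides of them. Ntrk3 differed little between these groups (log2 fold change -0.01, 95% interval -0.22 to 0.21, adjusted p = 0.984). In VERCUR-WT against VEH-WT its groups did not overlap, as in 9.72% of genes, and the ratio was 1.07 (log2 fold change 0.10, adjusted p = 0.999).

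Ngfr (ENSMUSG00000000120.6, chromosome 11, 95568818 to 95587735, minus strand) encodes p75NTR, which is known to be scarce in the adult cortex outside cholinergic fibres, whose cell bodies lie elsewhere. Its normalized counts were 70.61, 66.97 and 64.32 in VEH-WT, 79.98, 58.28 and 58.7 in VEH-CD, 56.97, 47.24 and 87.97 in VERCUR-WT, and 59.33, 60.25 and 84.69 in VERCUR-CD. From 48 to 102 reads per mouse stood behind them. In VEH-CD, VERCUR-WT and VERCUR-CD, 1 mouse was above the others of its group, and all groups overlapped. The Poisson 95% intervals of VEH-CD 1 (62.3 to 101) and VERCUR-CD 3 (67.9 to 104) overlapped those of the other mice in their groups. That of VERCUR-WT 3 (71.7 to 107) overlapped that of VERCUR-WT 1 (42 to 75.5) but not that of VERCUR-WT 2 (35.2 to 62.1). The log2 fold change in VEH-CD against VEH-WT was -0.05 with a 95% interval of -0.55 to 0.45 (adjusted p = 0.948), which leaves room for changes of 0.684-fold to 1.36-fold.

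Sort1 (ENSMUSG00000068747.14, chromosome 3, 108284082 to 108361511, plus strand) encodes sortilin, a sorting receptor that carries proneurotrophins and forms a complex with p75NTR. Its normalized counts were 26297, 26645 and 28037 in VEH-WT, 24107, 26601 and 25325 in VEH-CD, 28184, 26169 and 24798 in VERCUR-WT, and 23626, 32156 and 27170 in VERCUR-CD. VEH-CD 2 reached into the range of VEH-WT. The ratio of VEH-CD to VEH-WT was 0.939 with a 95% interval of 0.816 to 1.08 (log2 fold change -0.09, adjusted p = 0.725).

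The next questions were whether the co-treatment alters these genes in either genotype, and whether co-treated CD mice differ from wild-type mice. In VERCUR-CD against VEH-CD, 0 of the 6 members and 0% of the genes tested were differentially expressed (limma), and 0 members had an unadjusted p under 0.05 (3.54% of genes). The groups overlapped for all 6 members, while 8.34% of genes had groups that did not. Bdnf had a log2 fold change of 0.05 (95% interval -0.32 to 0.42, adjusted p = 0.958). As a ratio, this interval runs from 0.801 to 1.33. In VERCUR-WT against VEH-WT, 0 of 6 members and 0% of genes were called, and Ntf3 alone had an unadjusted p under 0.05 (5.22% of genes). The log2 fold change of Bdnf was -0.25 (adjusted p = 0.999), which became -0.08 without VEH-WT 2 and -0.11 without VERCUR-WT 3.

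In VERCUR-CD against VEH-WT, 0.199% of genes and 0 of 6 members were called, and 1 member, Ntf3, had an unadjusted p under 0.05 (8.68% of genes). No member had groups without overlap (13.9% of genes). Bdnf was 0.822-fold (log2 fold change -0.28, 95% interval -0.65 to 0.09, adjusted p = 0.681), and the log2 fold change became -0.12 without VEH-WT 2 and -0.44 with the striatal marker level as a covariate. The comparisons with VEH-WT share these 3 mice, and VEH-WT 2, the highest in Bdnf, enters each of them. In VERCUR-CD against VERCUR-WT, 0.146% of genes and 0 of 6 members were called, 0 members had an unadjusted p under 0.05 (4.1% of genes), and 0 had groups without overlap (7.74% of genes). Here the log2 fold change was -0.03 for Bdnf and -0.14 for Ntf3 (adjusted p = 1 for each).

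Over both treatments, CD against WT gave log2 fold changes of -0.18 for Bdnf (adjusted p = 0.696) and 0.24 for Ntf3 (adjusted p = 0.799), with 0 of 6 members called (0.321% of genes) and 0 at an unadjusted p under 0.05 (9.64% of genes). Over both genotypes, VERCUR against VEH gave -0.10 for Bdnf and 0.45 for Ntf3 (adjusted p = 1 for each), with 0 of 6 called (0% of genes) and 0 at an unadjusted p under 0.05 (2.96% of genes). The interaction of genotype and treatment, which asks whether the co-treatment acts differently in CD and WT mice, was 0.30 for Bdnf (95% interval -0.22 to 0.82, adjusted p = 0.823) and -0.76 for Ntf3 (-1.69 to 0.17, adjusted p = 0.816). It called 0 members (0% of genes), and 0 had an unadjusted p under 0.05 (6.05% of genes). Over the 7 comparisons other than VEH-CD against VEH-WT, the log2 fold changes of the 4 receptors ran from -0.12 to 0.20 and their adjusted p values from 0.75 to 1.

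**Figure D3:**
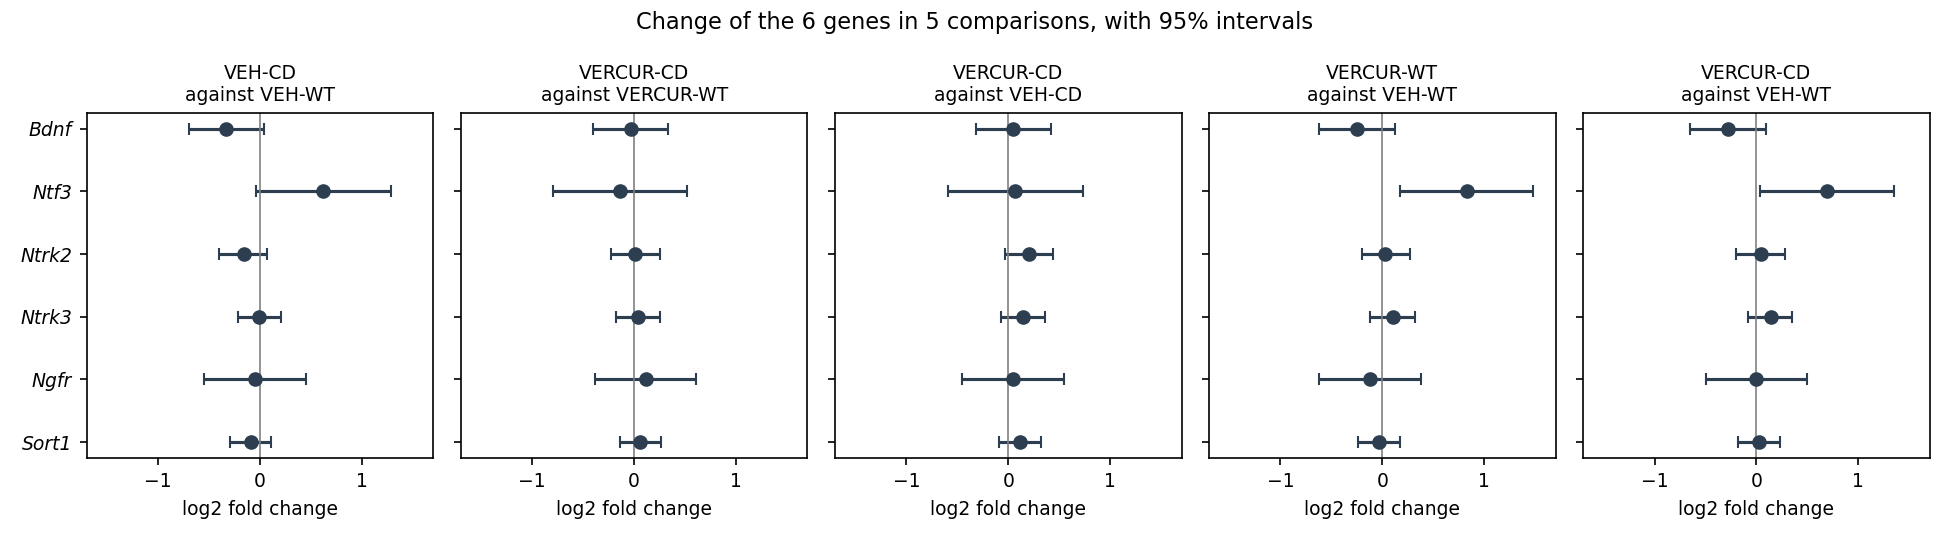
Log2 fold changes (x axes) of the 6 genes (y axis) in the 5 comparisons of 2 groups, with points for the limma estimates and bars for their 95% intervals, not adjusted for multiple testing. Only the bars of Ntf3 in VERCUR-WT and VERCUR-CD against VEH-WT leave out 0, and neither passed the adjusted test.

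The machinery around the 6 genes was read through 6 lists of the pathway, with 98 genes tested in VEH-CD against VEH-WT. Of these, 0 were differentially expressed (limma, 0.257% of all genes), and 19 had an unadjusted p under 0.05 (11.8% of all genes). Of the 19, 12 were in 1 list, the 17 genes that respond to BDNF and to neuronal activity. Beside each list median, the median log2 fold change of all genes was 0.00.

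In the processing of proneurotrophins, 9 of 12 listed genes were tested, 7 were lower and 2 higher, and the median log2 fold change was -0.19. Cpe, a carboxypeptidase that also sorts proBDNF into granules, had the highest mean (102163 normalized counts) and a log2 fold change of 0.06. The prohormone convertase Pcsk1 (mean 1962) had -0.36 (adjusted p = 0.562). Plat, the tissue plasminogen activator that starts the cleavage of proBDNF by plasmin, was below each VEH-WT mouse in each VEH-CD mouse (log2 fold change -0.27, adjusted p = 0.202). The means of Plat were 1165 in VEH-WT, 971.1 in VEH-CD, 956.1 in VERCUR-WT and 982.8 in VERCUR-CD.

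Among the 4 Vps10p-domain receptors related to sortilin, the median log2 fold change was -0.06, and the most abundant were Sorl1 (mean 15990, log2 fold change -0.21) and Sorcs3 (mean 2621, 0.05). Among the 15 partners of p75NTR, 5 were higher and 10 lower with a median of -0.02. The Nogo protein Rtn4 (mean 31396) and the co-receptor Lingo1 (mean 27442) had log2 fold changes of 0.02 and -0.02.

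Of the 40 adaptors and effectors of Trk receptors, 11 were higher and 29 lower, and their median was -0.08 on the log2 scale. The TrkB scaffold Kidins220 (mean 14161) had -0.03 and the kinase Map2k1 (MEK1, mean 12340) had -0.02. Crkl, an adaptor that links Trk receptors to Rap1, was the member of this list that differed most (log2 fold change -0.40, adjusted p = 0.156), with 2485, 2738 and 2695 normalized counts in VEH-WT and 1910, 2196 and 1883 in VEH-CD. These groups did not overlap. The means of Crkl were 2639 in VEH-WT, 1996 in VEH-CD, 2234 in VERCUR-WT and 2219 in VERCUR-CD.

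The 15 regulators of Bdnf transcription, a list that shares Creb1 and Npas4 with other lists, had 4 genes higher and 11 lower, around a median of -0.12. The activity-dependent factor Mef2c (mean 30729) had 0.00, and Arnt2 (mean 18170), a partner of NPAS4, had -0.07.

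Genes that respond to BDNF and to neuronal activity, a list that shares Npas4 and Sst with other lists, stood further from 0 than the other lists. In VEH-CD against VEH-WT, 17 of 17 had a log2 fold change of 0 or below, with a median of -0.67. Of these genes, 0 were differentially expressed (0.257% of all genes) and 12 had an unadjusted p under 0.05 (11.8% of all genes). Most of these genes are induced within minutes by any strong activity, so the list does not mark BDNF signalling alone. The immediate early gene Arc had 20198, 34120 and 25465 normalized counts in VEH-WT and 2658, 7210 and 8603 in VEH-CD (log2 fold change -2.24, SE 0.69, adjusted p = 0.233). The VEH-CD mice were all below the VEH-WT mice. Groups without overlap were found in 10 of the 17 genes of this list and in 20.6% of all genes tested.

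The same separation was seen in the zinc-finger factors Egr1 (log2 fold change -1.21, adjusted p = 0.112), Egr2 (-2.37, adjusted p = 0.105) and Egr3 (-0.63, adjusted p = 0.0709), the AP-1 genes Fos (-1.91, adjusted p = 0.181) and Fosb (-1.05, adjusted p = 0.165), and the nuclear receptor Nr4a1 (-1.50, adjusted p = 0.218). It was also seen in Dusp6, the phosphatase that turns off ERK (-0.67, adjusted p = 0.182), and in Vgf, a neuropeptide precursor induced by BDNF (-0.37, adjusted p = 0.256). Bdnf, in contrast, overlapped between these groups. VEH-WT 2, the highest mouse in Bdnf, was also the highest of the 12 in Arc, Egr1, Egr2, Egr3, Fos, Fosb, Nr4a1, Vgf and Dusp6.

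With the striatal marker level as a covariate, 17 of 17 genes of this list were lower and 12 had an unadjusted p under 0.05, as did 12.6% of all genes in that fit. Without the mouse of highest striatal level in each group, 17 of 17 were lower, 9 had an unadjusted p under 0.05 (5.56% of all genes), and the median was -0.53. In the other comparisons with VEH-WT, the list median was -0.40 in VERCUR-WT (16 of 17 lower) and -0.49 in VERCUR-CD (17 of 17 lower), and 0 genes were called in either. All of these comparisons share the VEH-WT mice. In VERCUR-CD against VERCUR-WT, which does not use them, the list median was -0.11, with 10 of 17 lower and 7 higher. In VERCUR-CD against VEH-CD its median was 0.24 with 13 of 17 higher. With the striatal marker level as a covariate, the median was 0.21 with 13 of 17 higher. Without the mice of highest striatal level, it was -0.04 with 6 of 17 higher. The co-treated mice kept there still had lower striatal sums than the vehicle-treated ones.

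**Figure D4:**
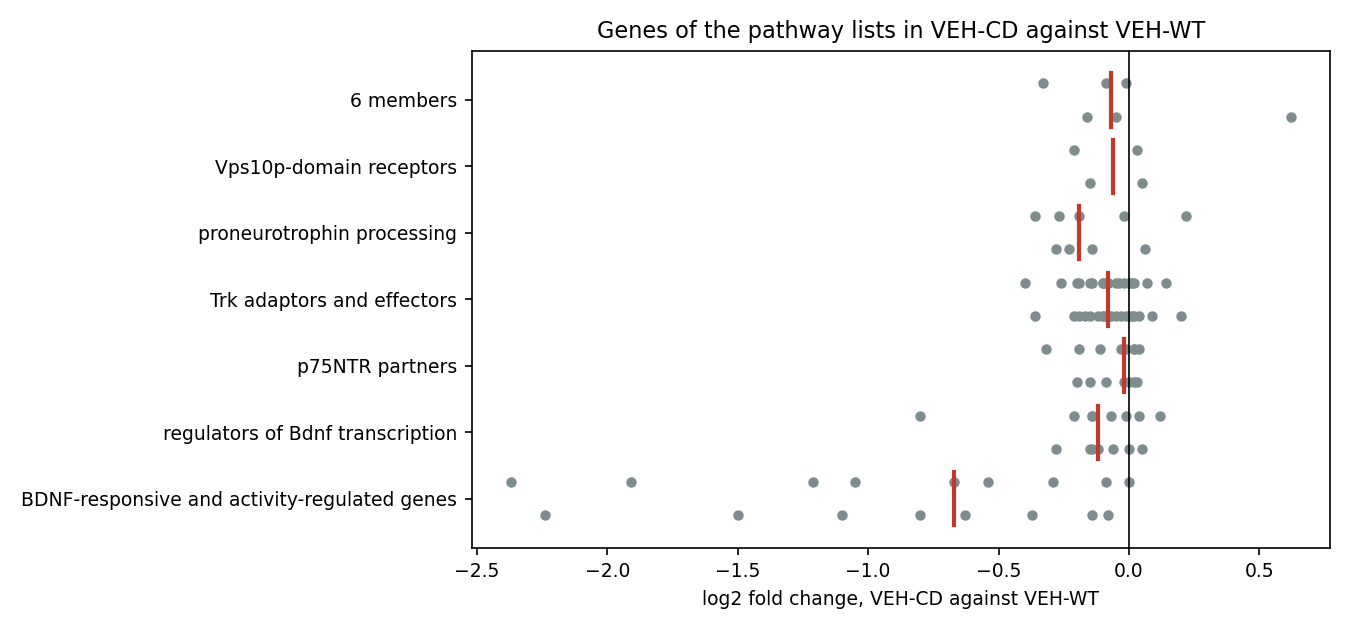
Log2 fold changes in VEH-CD against VEH-WT (x axis) of the 6 members and of the genes of 6 lists (y axis). Each point is 1 gene, drawn at 2 heights to part neighbours, and the red line is the list median. The genes that respond to BDNF and activity reach to -2.37, whereas the 40 Trk adaptors and effectors lie between -0.40 and 0.20.

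The 13 lists of cell type markers held 57 tested genes, of which 0 were differentially expressed in VEH-CD against VEH-WT (limma) and 5 had an unadjusted p under 0.05, against 11.8% of all genes. The sum of the excitatory neuron markers was 109385 to 115780 normalized counts in VEH-WT and 112724 to 120801 in VEH-CD.

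The members were also compared with each other over the 12 mice, on the log2 scale. These correlations are a description, since the mice share group effects and the normalization. Ntrk2, Ntrk3 and Sort1 varied together. Pearson's r was 0.94 between Ntrk2 and Sort1 (Spearman's rho 0.90), 0.90 between Ntrk3 and Sort1 (rho 0.78) and 0.89 between Ntrk2 and Ntrk3 (rho 0.80). Without VERCUR-CD 2, which was the highest in all 3 genes, r was 0.90, 0.76 and 0.80. For each of these 3 genes, the mouse of highest striatal marker level was the lowest in 3 of the 4 groups and the highest in 1. The part of the dissection in these correlations was not tested.

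For each ligand and its receptor, the r of Bdnf and Ntrk2 was 0.34 (rho 0.35) and that of Ntf3 and Ntrk3 was 0.53 (rho 0.73). Without the 2 mice farthest from the median of the first gene, r was 0.33 for Bdnf and Ntrk2 and 0.71 for Ntf3 and Ntrk3, beside 0.88 for Ntrk2 and Sort1, 0.71 for Ntrk3 and Sort1 and 0.66 for Ntrk2 and Ntrk3. Bdnf and Ntf3 had an r of 0.11 over the 12 mice and of 0.74 after the group means were taken out, so that mice with more Bdnf than their group also tended to have more Ntf3. Bdnf and Ngfr had an r of -0.49 (rho -0.54).

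The genes named here as most like each member are among the 3 of highest Pearson's r over the 12 mice, of all genes tested. For Bdnf these were Ythdf2 and Aldh18a1 (r = 0.94 for each), and for Ntf3 they were Smoc2 (0.92), Gpc4 (0.92) and C1ql3 (0.91). For Ntrk2 they were Enah (0.98), Kantr (0.97) and Dpy19l3 (0.97), for Ntrk3 2610002M06Rik (0.99), Ncam2 (0.98) and B230209E15Rik (0.98), and for Sort1 Opcml, Xylt1 and Arl8b (0.98 for each). Ngfr had the weakest matches, with Gm44899 (0.85) and Efcab2 (0.84). They are among the highest of 17110 values of r for each member.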

How the data were processed

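RNA of the cortex of 12 mice, 3 per group, was sequenced as paired-end reads. Groups came from the sample labels, and each column of the table from the identifier it shares with 1 label. According to the labels, the reads were aligned to GRCm38 with STAR 2.5.3a. The deposited values are normalized counts: the authors scaled the reads counted on each gene with 1 factor for each library. The counting program, the annotation release and the use of strand are not given in the sources used here, so reads of overlapping genes may be shared. Low values were whole multiples of 1 step per sample (100% in each library), from which 40290000 to 56480000 counted reads per mouse follow. Intervals on reads cover counting error only. Another 2 deposited tables hold levels scaled by the authors to vehicle-treated wild-type mice, with blanks for some mice and genes. Their positions were not matched to samples, and they entered no test.

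A limma model (version 3.58.1, R 4.3.3) with 4 group means and an intensity trend took log2(normalized count + 1) of all 12 mice, over the 17111 genes with a mean of at least 10. All 6 members passed this filter. Fold changes on this scale understate those of low genes. Two-sided p values were adjusted by Benjamini-Hochberg over every gene of the fit, and a call needed an adjusted p under 0.05 and a level more than 25% higher or lower (the interaction, the adjusted p alone). Each p value sets a difference against the spread between mice within groups. That spread was pooled over the 4 groups of 3 mice and moderated over all genes of the fit. The fit was tested on simulated data. Positions are from GENCODE M21, and start windows from RefSeq.

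The members and gene lists were chosen with earlier results of these data known, and the study itself named Bdnf and Ntf3 from these mice, so their directions are not independent evidence. From the lists of the pathway, genes were named if called, if VEH-CD and VEH-WT did not overlap and the unadjusted p was under 0.01, or if they were among the 2 of highest mean. Of the marker lists, only genes that passed the first 2 conditions were named, beside the markers whose sums are given. Alternatives were other pseudocounts, filters, scalings and fits, the replicate number as a block, dropping the value farthest from its group's median where the CV reached 20%, and leaving out each mouse. The 2 settings on striatal markers were added after the data were seen. Leaving out the mouse of highest level in each group does not balance striatal level between treatments. The mice kept had sums of 3190 to 3377 under vehicle and 1085 to 1161 under co-treatment. A few genes are not reported here, and the lists and sums were taken without them.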

Additional observations from a re-analysis of the deposited data

How the results depend on the processing

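For the 8 comparisons, 0 members were called under each alternative except the removal of the farthest value where the CV was 20% or more, which called 1 member, Ntf3, in VEH-CD, VERCUR-WT and VERCUR-CD against VEH-WT, in CD against WT and in VERCUR against VEH. Of 946 values of the members under the alternatives, 5 were called, and 58 had the sign opposite to their reported value, none of them called. On the log2 fold change scale, opposite signs under that removal were given by Ntf3 in VERCUR-CD against VERCUR-WT (0.28) and by Bdnf in VERCUR against VEH (0.06), and under quantile normalization by Ntrk3 in VEH-CD against VEH-WT (0.01). With the striatal marker level as a covariate, VERCUR-CD against VEH-CD gave -0.11 for Bdnf and -0.23 for Ntf3. Without the mouse of highest striatal level in each group, it gave -0.08 for Bdnf, and VEH-CD against VEH-WT gave 0.04 for Ntrk3. The cause was not tested.

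Leaving out 1 mouse at a time also changed signs. In VEH-CD against VEH-WT, Ntrk3 ran from -0.05 to 0.04 and Ngfr from -0.20 to 0.03. In VERCUR-CD against VERCUR-WT, Bdnf ran from -0.17 to 0.04 and Ntf3 from -0.34 to 0.10. In VERCUR-CD against VEH-CD, Bdnf ran from -0.11 to 0.20 and Ntf3 from -0.03 to 0.24.

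The number of all genes called moved more. In VEH-CD against VEH-WT it was 44 with all mice, 23 to 47 with 1 mouse left out (23 without VEH-WT 2, 26 without VEH-WT 3, 24 without VEH-CD 1 and 24 without VEH-CD 3), 16 without the mice of highest striatal level and 972 after removal of the farthest values, with 30 in place of 44 without the trend. That removal took the counts from 25 to 448 in VERCUR-CD against VERCUR-WT, from 34 to 840 in VERCUR-CD against VEH-WT, from 55 to 837 in CD against WT and from 0 to 241 in VERCUR-CD against VEH-CD, 649 in VERCUR-WT against VEH-WT, 442 in VERCUR against VEH and 492 in the interaction. Without the mice of highest striatal level, CD against WT called 29 genes, VERCUR-CD against VEH-CD 12, VERCUR-WT against VEH-WT 13 and VERCUR against VEH 23. Treatment and striatal level cannot be told apart in that setting, since the co-treated mice kept all had lower striatal sums than the vehicle-treated ones.

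Replicate numbers were not taken to pair the mice, since in none of the 5 comparisons of 2 groups were all correlations of same-numbered deviations above 0.1 (-0.35 to 0.27 over 15 pairs). In VERCUR-WT against VEH-WT, where they were 0.06, 0.18 and 0.27, each mouse correlated best with its own number, a hint from the data and not from the design. In VEH-CD against VEH-WT, the replicate block called 0 members and gave Bdnf -0.33 (adjusted p = 0.307) and Ntf3 0.62 (adjusted p = 0.447). The block changed no call of a member, and the genes called there went from 44 to 40. With the longest transcript in place of all exons, the mean levels per kb were 344 for Bdnf, 3110 for Ntrk2, 353 for Ntrk3 and 3890 for Sort1, since the length is shorter. Ntf3 was not tested under the mean of at least 50. A count model on recovered reads was not run, because values with decimal commas gave no checked count unit. The 15 to 41 reads of Ntf3 and 48 to 102 of Ngfr limit what these data can show.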
